A study of Mus musculus with 12 samples.

Results

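Transcripts of 10 genes that bring arginine into macrophages and divide it between nitric oxide, urea and polyamines were followed in RAW264.7 cells, a mouse macrophage line. The genes were taken by name: Nos2, Arg1, Arg2, Ass1, Asl, Slc7a1, Slc7a2, Gch1, Odc1 and Sat1. Of these, 9 had a row among the 12483 genes of the deposited count table and all 9 passed the filter on low counts, while Slc7a2 is not analysed here. The filter kept 12231 genes in all.

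The labels put 12 libraries in 4 groups: WT clones 1, 2 and 3 and KO clones 1A, 1B and 2, each once in medium and once with LPS (10 ng/mL) plus IFN-gamma (50 ng/mL), taken at 6 h. KO stands for a CRISPR deletion of NRE1, a name the labels do not expand. The labels give 1 growth protocol for all samples, WT included: constructs against both flanks of NRE1, selection on GFP and puromycin expression, and growth from single cells, so that each line descends from 1 cell. The relation of KO 1A to KO 1B is not given, and p-values measure only the spread between the libraries of these clones.

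Macrophages exposed to LPS and IFN-gamma make nitric oxide from arginine with the inducible synthase Nos2, which needs the cofactor tetrahydrobiopterin, whose first committed enzyme is Gch1. Nitric oxide synthesis releases citrulline, and Ass1 and Asl turn citrulline back into arginine, while the transporters Slc7a1 and Slc7a2 carry arginine in from outside. The arginases Arg1 and Arg2 compete for the same arginine and yield ornithine, which Odc1 converts to putrescine, the first polyamine, and Sat1 acetylates spermidine and spermine for export or breakdown.

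Total counts per library ran from 10624591 to 14388590. Levels are CPM values, counts divided by the library's TMM-scaled size, and 3 counts, the limit that a count of 0 allows, came to between 0.187 and 0.328 CPM depending on the library. That limit and all counting intervals cover counting error only. All 9 macrophage markers on a fixed list were measured, with summed levels in medium of 8142 to 18679 CPM in WT and 4391 to 13686 CPM in KO clones, and under stimulation of 8944 to 18408 and 5382 to 11340 CPM. Of the T and NK cell markers 1 of 6 was measured (Lck, 1.72 to 4.77 CPM in medium and 7.91 to 25.4 CPM under stimulation) and of the neutrophil markers 1 of 5 (S100a8, at most 2.84 CPM), while of the B cell, fibroblast, epithelial and hepatocyte markers 0 were measured. The part of the Lck change in the results was not tested. In such bulk RNA, fewer cells expressing a gene and less RNA per cell cannot be told apart.

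In WT clones 7 of the 9 genes rose with LPS/IFN-gamma and none fell: Nos2, Gch1, Ass1, Asl, Arg2, Odc1 and Sat1. In KO clones the same 7 rose and so did Slc7a1, which makes 8, and again none fell. Stimulated and medium libraries did not overlap for 7 genes in WT and 8 in KO clones, as for 50.5% and 70% of all genes tested. A rise or a fall here is an adjusted p below 0.05 in edgeR's quasi-likelihood test, adjusted over all genes tested. Of all genes tested, 47.4% were called in the WT response and 54.3% in the KO response, and 23.8% and 26.7% were called higher. The median log2 change of the 9 genes was 2.60 in WT and 3.37 in KO clones, against -0.01 over all genes in both. Nos2, Ass1, Arg1 and Arg2 had at most 8 counts in any medium library and passed the filter through their stimulated libraries. The counts and medians above are therefore given as a description only. The same holds for the response p-values and fold ranks of these genes below.

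**Figure D1:**
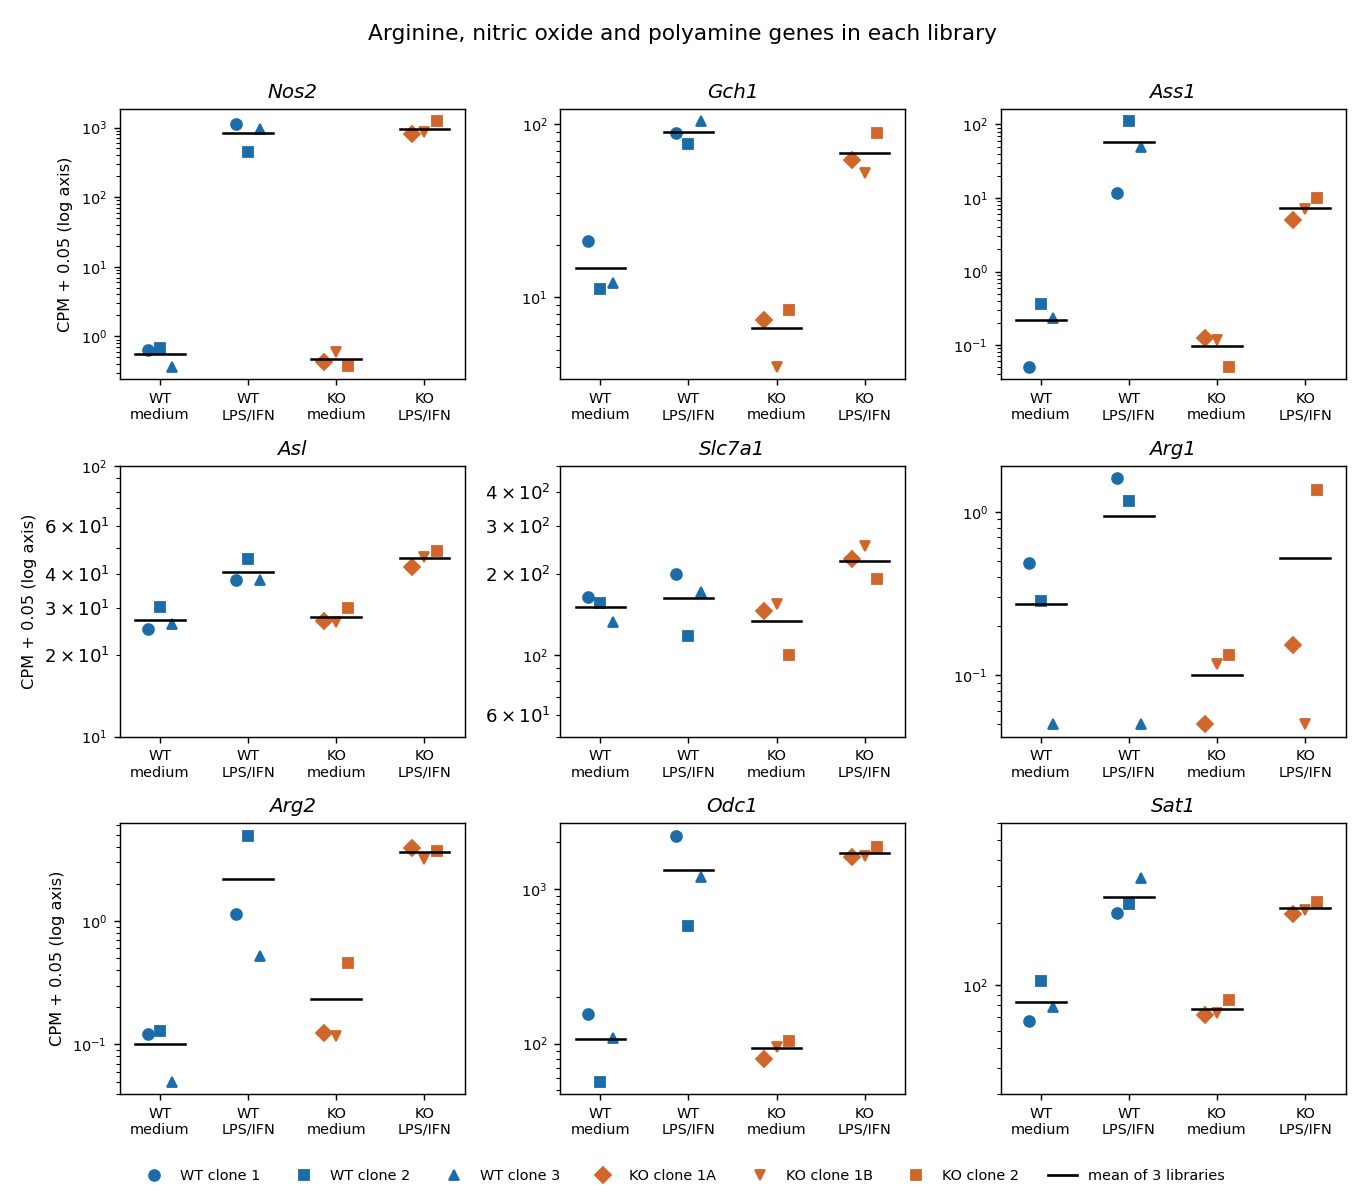
Each panel plots 1 gene's level in CPM plus 0.05 on a log axis for the 12 libraries, with WT clones in blue, KO clones in orange, 1 symbol per clone and a bar at the mean of 3 libraries. Nos2 lies below 1 CPM in every medium library and between 451 and 1234 CPM in every stimulated one, whereas the Slc7a1 groups of the WT clones overlap.

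Nos2, the inducible nitric oxide synthase (ENSMUSG00000020826, chr11:78920787-78960254, + strand, GRCm38), went from near the counting limit to one of the higher levels among these genes. In medium it was at 0.580, 0.626 and 0.311 CPM in WT clones 1, 2 and 3 and at 0.375, 0.541 and 0.329 CPM in KO clones 1A, 1B and 2. Under LPS/IFN-gamma it was at 1121, 451 and 946 CPM in the WT clones and at 803, 848 and 1234 CPM in the KO clones. The lowest stimulated library was WT clone 2, and every stimulated library lay far above every medium library. The WT mean went from 0.506 ± 0.170 to 839 ± 347 CPM (SD, n = 3), a log2 fold change of 10.70 ± 0.48 (SE, adjusted p = 1.3e-07) that ranked 15 by fold among 12231 genes. In KO clones the mean went from 0.415 ± 0.112 to 962 ± 237 CPM, by 11.12 ± 0.49 (adjusted p = 1.0e-07), rank 10. Because Nos2 passed the filter through its stimulated libraries, these response p-values and ranks are a description only. KO clones did not differ from WT clones in Nos2 by more than the spread between clones, either in medium (-0.23 ± 0.64, adjusted p = 0.922) or under stimulation (0.20 ± 0.29, adjusted p = 0.749).

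Gch1, GTP cyclohydrolase and the entry point of tetrahydrobiopterin synthesis (chr14:47153895-47189413, - strand), started from a level that could be read in every library and rose in all 6 clones. In medium it was at 21.1, 11.1 and 12.1 CPM in WT clones 1, 2 and 3 and at 7.35, 3.92 and 8.47 CPM in KO clones 1A, 1B and 2. Under stimulation the values were 88.7, 76.5 and 103 CPM in WT and 62.1, 52.1 and 88.9 CPM in KO clones. Stimulated and medium libraries did not overlap in either genotype. The rise was 2.60 ± 0.32 on the log2 scale in WT clones (adjusted p = 0.00011) and 3.37 ± 0.34 in KO clones (adjusted p = 2.1e-05). In medium, all 3 KO clones lay below all 3 WT clones, with means of 6.58 ± 2.37 against 14.8 ± 5.48 CPM (SD, n = 3). Of all genes, 20.9% did not overlap between the genotypes in medium. The fitted difference was -1.17 ± 0.33 and missed the threshold at an adjusted p = 0.124 (unadjusted p = 0.00465). Over its 13 alternatives the adjusted p ran from 0.0156, in DESeq2, to 0.683. With single clones left out it ran from 0.106 to 0.493. Under stimulation the KO and WT clones overlapped (-0.40 ± 0.30, adjusted p = 0.483).

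Because most of the group rose together, promoter sequence is shown for 4 genes, chosen after their values were seen: Gch1 for the entry to the cofactor route, Ass1 for its difference between genotypes, Odc1 for its level, and Slc7a1 for contrast. RefSeq windows of 250 bases before to 50 after a transcription start (GRCm38.p6) were matched for 5 of the 10 genes: Ass1, Gch1, Odc1, Sat1 and Slc7a1, the last with a pair of starts. Nos2, Arg1, Arg2, Asl and Slc7a2 were not matched, and the Sat1 window is described by its matches alone. Both strands were searched for elements of inflammatory and growth signals: GAS, the interferon gamma element (TTCNNNGAA), ISRE (GAAA again after any 2 bases), NF-kB, AP-1 (TGANTCA), CRE (TGACGTCA) and the E-box (CACGTG). The core promoter letters searched were the TATA box (TATAAA), the CCAAT box and the GC box (GGGCGG). None of these motifs overlapped another in the windows shown, and a match describes letters and is not a site. Capitals in the printed windows mark the matches other than CCAAT and GC boxes.

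Gch1 promoter, chr14:47189364-47189663, - strand, 60.3% GC: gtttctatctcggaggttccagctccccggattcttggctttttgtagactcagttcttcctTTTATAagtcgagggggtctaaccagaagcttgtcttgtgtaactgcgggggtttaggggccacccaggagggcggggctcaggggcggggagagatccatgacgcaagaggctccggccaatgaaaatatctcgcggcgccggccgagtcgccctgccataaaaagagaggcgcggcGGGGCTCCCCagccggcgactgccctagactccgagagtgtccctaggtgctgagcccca

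The Gch1 window held an NF-kB match, GGGGCTCCCC, starting 10 bases upstream of the start, and TATA letters on the opposite strand, TTTATA, starting 188 bases upstream. It also held 2 GC boxes, starting 118 and 105 bases upstream, and 1 CCAAT match starting 70 bases upstream. Of 32851 windows of the same length in the RefSeq table, 4.51% held the NF-kB letters and 13.6% the TATA letters. GC boxes were in 35.7% of all windows and CCAAT letters in 37.4%. No GAS or ISRE letters were in this window, and 8.3% and 3.44% of all windows held them.

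Ass1, argininosuccinate synthase, joins citrulline to aspartate in the first step of arginine recycling (chr2:31470207-31520672, + strand). It was nearly silent in medium, with 0, 4 and 3 counts in WT clones 1, 2 and 3 and 1, 1 and 0 counts in KO clones 1A, 1B and 2. Under LPS/IFN-gamma it reached 11.7, 111 and 49.0 CPM in the WT clones (128, 1094 and 516 counts) but 4.91, 6.94 and 9.85 CPM in the KO clones (48, 71 and 90 counts). Ass1 was thus counted in every stimulated library, the WT clones lay far apart, and the highest KO clone lay just below the lowest WT clone. In WT clones the mean went from 0.167 ± 0.158 to 57.2 ± 50.1 CPM (SD, n = 3), by 8.35 ± 1.00 on the log2 scale (adjusted p = 9.9e-05). In KO clones 209 stimulated counts stood against 2 in medium, a ratio of 144 with a 95% counting interval of 39.5 to 1201 (adjusted p = 0.00080).

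Under stimulation Ass1 was lower in KO clones than in WT clones, the one gene of the 9 called in that comparison. The means were 7.23 ± 2.48 against 57.2 ± 50.1 CPM (SD, n = 3), a log2 difference of -2.98 ± 0.68 (adjusted p = 0.0376). Of all genes tested 4.64% were called in this comparison, 3.51% of all genes as lower and 1.13% as higher, and 24% did not overlap between the genotypes. Ass1 no longer passed without WT clone 2 (-2.05, adjusted p = 0.0857), without KO 1A (adjusted p = 0.269), without KO 1B (adjusted p = 0.213), without KO 2 (adjusted p = 0.0944) and with KO 1A and 1B summed into 1 (adjusted p = 0.232). Over its 13 alternatives the difference ran from -3.47 to -2.05 and the adjusted p from 0.00051, in DESeq2, to 0.269. The summed macrophage markers also ran lower in stimulated KO clones (5382 to 11340 CPM) than in WT clones (8944 to 18408 CPM), with ranges that overlap, and their part in the Ass1 difference was not tested. In medium 7 WT counts stood against 2 KO counts, a ratio of 3.31 with an interval of 0.630 to 32.6, so no difference was detectable at this depth.

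Ass1 has a near-identical copy in the table, the processed pseudogene Gm5424 (chr10:62071123-62072362), which matches it at 99.5% over 1240 bases, and reads could be split between them. Gm5424 had 0 counts in every medium library. Under stimulation it was at 1.28, 7.30 and 3.70 CPM in WT clones 1, 2 and 3 and at 1.02, 0.293 and 0.657 CPM in KO clones 1A, 1B and 2. The order of the WT clones was that of Ass1, and its counts over all libraries came to 7.36% of those of Ass1. With both summed, an alternative chosen after seeing the data, the KO difference under stimulation was -2.96 ± 0.66 (adjusted p = 0.0349).

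Ass1 promoter, chr2:31470020-31470319, + strand, 74.0% GC: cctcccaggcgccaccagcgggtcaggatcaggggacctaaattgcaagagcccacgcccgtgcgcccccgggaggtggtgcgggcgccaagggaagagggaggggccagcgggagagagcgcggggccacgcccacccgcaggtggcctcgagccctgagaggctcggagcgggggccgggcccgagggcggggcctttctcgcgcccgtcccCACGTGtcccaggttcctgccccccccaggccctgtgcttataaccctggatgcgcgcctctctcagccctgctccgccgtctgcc

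The Ass1 window held an E-box match, CACGTG, starting 36 bases upstream of the start, and a GC box starting 63 bases upstream. E-box letters were in 7.15% of all windows. No GAS, ISRE, NF-kB or AP-1 letters were in this window.

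**Figure D2:**
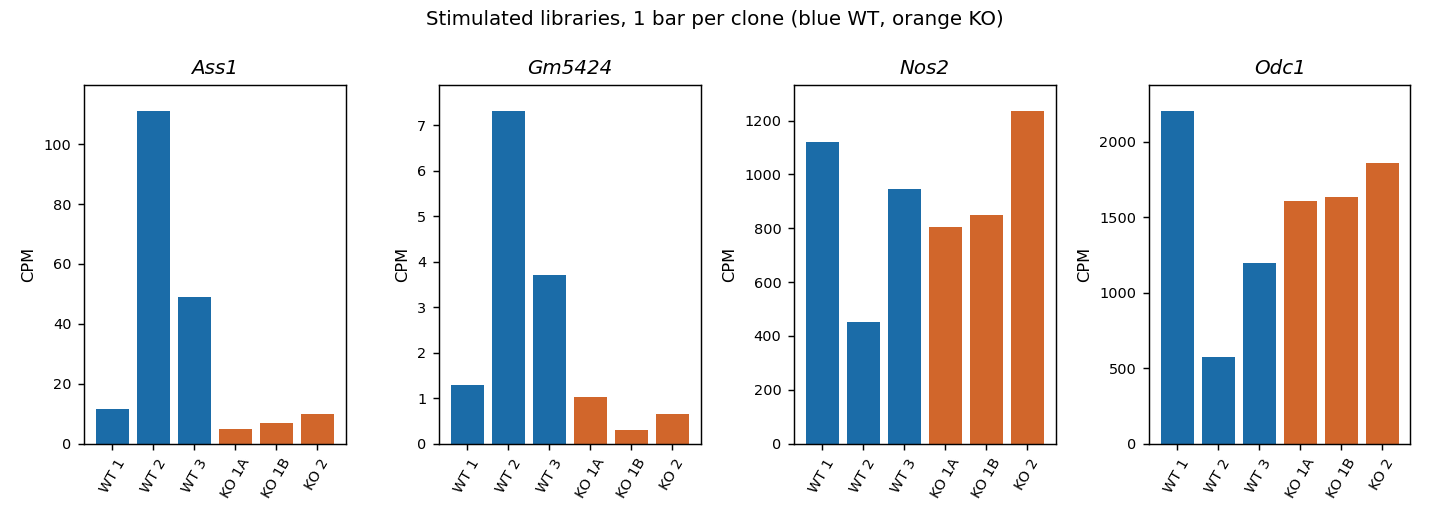
Bars give the level in CPM of Ass1, its pseudogene Gm5424, Nos2 and Odc1 in the 6 stimulated libraries, 1 bar per clone, WT in blue and KO in orange, on linear axes that start at 0. WT clone 2 has the highest Ass1 bar (111 CPM) and the lowest Nos2 (451 CPM) and Odc1 (574 CPM) bars.

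Asl, argininosuccinate lyase, releases arginine in the next step of the same recycling route (chr5:130011258-130029247, - strand). Unlike Ass1 it was expressed in medium, at 24.9, 30.1 and 25.9 CPM in WT clones 1, 2 and 3 and at 26.6, 26.6 and 29.8 CPM in KO clones 1A, 1B and 2. With LPS/IFN-gamma it stood at 38.0, 45.4 and 37.8 CPM in WT and 42.3, 46.1 and 48.6 CPM in KO clones. The shift was small but without overlap, by 0.58 ± 0.12 on the log2 scale in WT clones (adjusted p = 0.0020) and by 0.72 ± 0.12 in KO clones (adjusted p = 0.00040). Scaled by library totals alone, which moved the median of all genes to -0.37 in WT and -0.39 in KO clones, the Asl change was 0.22 in WT clones and no longer called (adjusted p = 0.0999), and 0.34 in KO clones (adjusted p = 0.0171). Neither response passed a test against a fold of 1.5 (adjusted p = 0.625 and 0.132). Asl did not differ between genotypes by more than the spread between clones (0.03 ± 0.12 in medium, adjusted p = 0.939, and 0.18 ± 0.12 with LPS/IFN-gamma, adjusted p = 0.415).

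Slc7a1, the cationic amino acid transporter CAT1 (chr5:148327410-148399904, - strand), was high in every library and moved little in WT clones. In medium it was at 164, 156 and 132 CPM in WT clones 1, 2 and 3 and at 146, 155 and 100 CPM in KO clones 1A, 1B and 2. Under stimulation it was at 199, 118 and 172 CPM in WT and at 226, 254 and 191 CPM in KO clones. The level was lower under stimulation than in medium in WT clone 2, and higher in the other 5 clones. The WT response was 0.11 ± 0.21 on the log2 scale and not called (adjusted p = 0.689). It was -0.01 without WT clone 3 and -0.24 when scaled by library totals. In KO clones Slc7a1 rose by 0.74 ± 0.21 (adjusted p = 0.0118), a call lost under library totals (0.37, adjusted p = 0.182), without KO 1A (0.80, adjusted p = 0.0548) and in the test against a fold of 1.5 (adjusted p = 0.242).

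The Slc7a1 responses of the KO clones, at 0.64, 0.71 and 0.93 on the log2 scale, all lay above those of the WT clones, at 0.28, -0.40 and 0.37. The test of that difference gave 0.63 ± 0.30 with an adjusted p = 1.00 (unadjusted p = 0.0572), and 0.67 ± 0.20 with an adjusted p = 0.237 with clone as a replicate block. KO and WT clones did not differ in Slc7a1 by the test in medium (-0.18 ± 0.21, adjusted p = 0.778) or under stimulation (0.46 ± 0.21, adjusted p = 0.244).

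Slc7a1 promoter at the upstream start, chr5:148399855-148400154, - strand, 65.0% GC: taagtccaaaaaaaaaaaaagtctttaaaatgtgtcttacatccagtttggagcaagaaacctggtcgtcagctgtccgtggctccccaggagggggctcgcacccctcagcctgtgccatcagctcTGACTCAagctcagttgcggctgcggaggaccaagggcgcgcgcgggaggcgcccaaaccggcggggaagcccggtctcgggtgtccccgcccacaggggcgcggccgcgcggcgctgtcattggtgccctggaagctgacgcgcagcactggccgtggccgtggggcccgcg
Slc7a1 promoter at the downstream start, chr5:148392766-148393065, - strand, 51.7% GC: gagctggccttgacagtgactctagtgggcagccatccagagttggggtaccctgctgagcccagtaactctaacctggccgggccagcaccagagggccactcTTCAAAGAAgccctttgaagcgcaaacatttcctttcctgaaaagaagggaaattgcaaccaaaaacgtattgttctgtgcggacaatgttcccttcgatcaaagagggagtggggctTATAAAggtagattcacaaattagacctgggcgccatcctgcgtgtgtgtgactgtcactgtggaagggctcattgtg

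The upstream Slc7a1 window held an AP-1 match, TGACTCA, starting 123 bases before its start, as did 7.81% of all windows for TGANTCA. The downstream window held a GAS match, TTCAAAGAA, starting 146 bases before its start and TATAAA starting 28 bases before it. Gene counts do not tell which start was used.

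Arg1, the cytosolic arginase best known from alternatively activated macrophages (chr10:24915221-24927484, - strand), stayed at the edge of detection. It had 6, 3 and 0 counts in medium and 17, 11 and 0 under stimulation in WT clones 1, 2 and 3. In KO clones 1A, 1B and 2 it had 0, 1 and 1 counts in medium and 1, 0 and 12 under stimulation. WT clone 3 thus had no Arg1 count in either condition, and 12 of the 13 stimulated KO counts came from KO 2. The WT difference was 2.00 ± 1.29 on the log2 scale (adjusted p = 0.228), and in KO clones 13 counts against 2 gave a ratio of 8.99 with an interval of 2.03 to 82.0 (adjusted p = 0.187). With clone as a replicate block both responses were called, at adjusted p = 0.0237 in WT and 0.0294 in KO clones. Without KO 2 the fitted KO value was 0.40 (adjusted p = 0.922).

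Arg2, the mitochondrial arginase (chr12:79130777-79156301, + strand), rose in both genotypes from almost no counts. In medium it had 1, 1 and 0 counts in WT clones 1, 2 and 3 and 1, 1 and 5 in KO clones 1A, 1B and 2. Under stimulation it had 12, 48 and 5 counts in WT clones (1.10, 4.87 and 0.475 CPM) and 38, 32 and 33 in KO clones (3.89, 3.13 and 3.61 CPM). The KO clones were close to each other, and the WT clones lay on both sides of them. In WT clones 65 counts against 2 gave a ratio of 44.2 with an interval of 11.8 to 373 (adjusted p = 0.0026), and in KO clones the rise was 4.25 ± 0.89 on the log2 scale (adjusted p = 0.0022). Its 3' end overlaps that of Vti1b on the other strand, with 20.0% of the Arg2 exon length shared, and whether counting used strand is not given in the sources used here. Vti1b lay between 55.2 and 97.2 CPM in the medium libraries, where Arg2 had at most 5 counts, and between 76.5 and 129 CPM in the stimulated ones.

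Odc1, ornithine decarboxylase and the rate-limiting enzyme of polyamine synthesis (chr12:17544794-17551505, + strand), reached the highest level of the group. In medium it was at 154, 56.9 and 109 CPM in WT clones 1, 2 and 3 and at 79.9, 95.5 and 105 CPM in KO clones 1A, 1B and 2. Under stimulation it was at 2201, 574 and 1195 CPM in WT and at 1606, 1636 and 1858 CPM in KO clones. WT clone 2 was the lowest library of its genotype in both conditions, and WT clones spread more widely than KO clones. The rise was 3.63 ± 0.48 on the log2 scale in WT clones (adjusted p = 0.00019) and 4.19 ± 0.50 in KO clones (adjusted p = 6.6e-05). KO and WT clones overlapped in medium (-0.19 ± 0.44, adjusted p = 0.902) and under stimulation (0.36 ± 0.44, adjusted p = 0.689).

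Within each clone the Odc1 change was more even than the levels: 3.83, 3.34 and 3.46 on the log2 scale in WT clones and 4.33, 4.10 and 4.15 in KO clones. All 3 KO responses lay above all 3 WT responses. The test of the difference gave 0.55 ± 0.62 (adjusted p = 1.00), and 0.65 ± 0.15 with clone as a replicate block (adjusted p = 0.122). Among annotated transcripts, those of 19 other genes matched Odc1 at 90% identity or more over at least 200 bases. Of these genes 6 were counted, with 54 to 1330 counts each. The 1330 counts were of AW146154, annotated as protein-coding, which matches at 92.1% over 921 bases. The 2143 counts of the 6 came to 2.14% of the 100126 counts of Odc1.

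Odc1 promoter, chr12:17544623-17544922, + strand, 78.0% GC: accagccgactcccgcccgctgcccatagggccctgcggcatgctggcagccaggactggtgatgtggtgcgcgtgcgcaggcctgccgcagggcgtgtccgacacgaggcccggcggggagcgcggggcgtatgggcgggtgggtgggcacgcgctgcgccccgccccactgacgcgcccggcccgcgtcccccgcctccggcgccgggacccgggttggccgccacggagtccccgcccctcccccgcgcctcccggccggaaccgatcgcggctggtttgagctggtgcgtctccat

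The Odc1 window, the richest in GC of the 6 examined, held 4 GC boxes, starting 238, 116, 88 and 15 bases upstream, and none of the other letters searched. The median window of the RefSeq table was 52.7% GC. The Sat1 window (chrX:155216400-155216699, - strand, 60.3% GC) held 2 GC boxes, starting 72 and 6 bases upstream, and no other match. ISRE and CRE letters were in 0 of the 6 windows of these genes.

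Sat1, spermidine/spermine acetyltransferase, the entry to polyamine breakdown and export (chrX:155213132-155216449, - strand), rose beside Odc1 in every clone. In medium it was at 67.2, 105 and 78.1 CPM in WT clones 1, 2 and 3 and at 71.8, 73.4 and 84.5 CPM in KO clones 1A, 1B and 2. Under stimulation it was at 223, 245 and 327 CPM in WT and at 221, 229 and 252 CPM in KO clones. Every stimulated library lay above every medium library. The rise was 1.67 ± 0.18 on the log2 scale in WT clones (adjusted p = 3.9e-05) and 1.61 ± 0.18 in KO clones (adjusted p = 3.5e-05), and the difference between these responses was -0.06 ± 0.25 (adjusted p = 1.00). Genotypes overlapped in medium (-0.12 ± 0.18, adjusted p = 0.827) and under stimulation (-0.18 ± 0.18, adjusted p = 0.603).

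**Figure D3:**
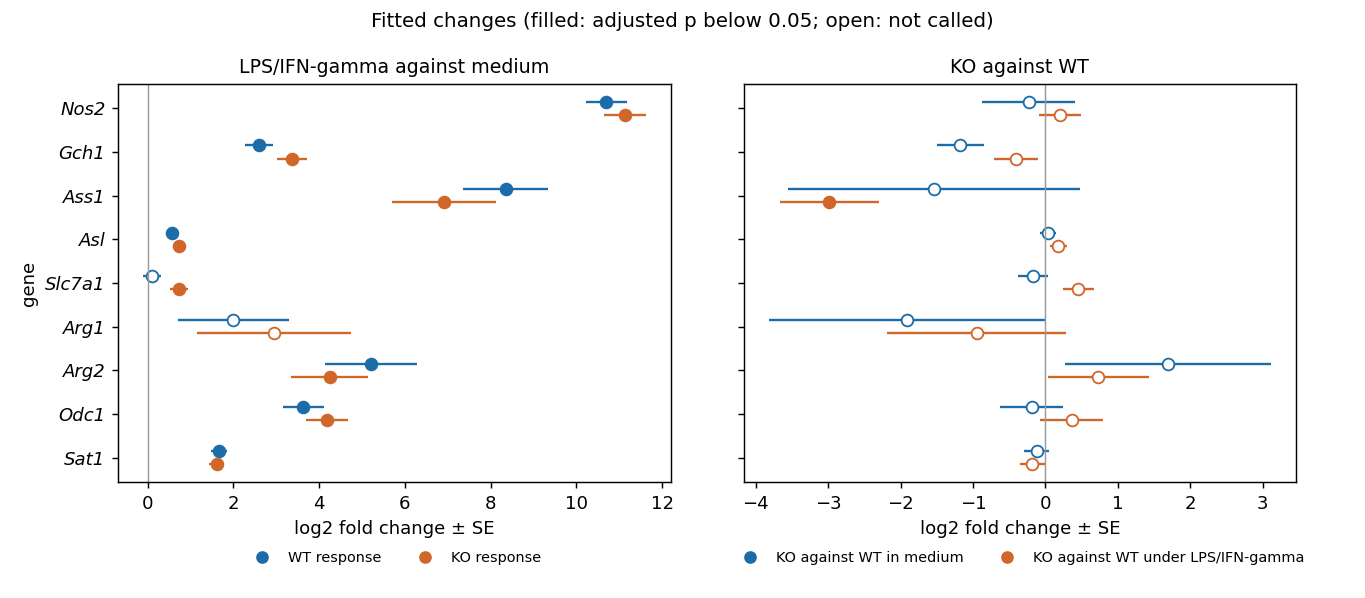
Points give the fitted log2 fold change of each gene and bars its SE, left for LPS/IFN-gamma against medium in WT (blue) and KO (orange) clones, right for KO against WT in medium (blue) and under stimulation (orange); filled points have an adjusted p below 0.05. Nos2 has the highest responses, at 10.70 and 11.12, and Ass1 under stimulation, at -2.98, is the one filled point on the right.

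Across the group, 0 of 9 genes were called between KO and WT clones in medium, where 1.21% of all genes were called and 20.9% did not overlap between the genotypes. At an unadjusted p below 0.05 there was 1 (Gch1), as for 14.1% of all genes, and DESeq2 called 1, Gch1, and 4.96% of all genes. The median log2 difference of the 9 genes was -0.19 in medium and 0.18 under stimulation, against -0.01 and -0.02 over all genes. A difference between the responses of KO and WT clones was called for 0 of 9 genes and 0% of all genes in edgeR, with 0 of the 9 and 611 of all genes at an unadjusted p below 0.05. With clone as a replicate block 40 genes were called and with DESeq2 28, none of them of this group. Set side by side on log2(CPM + 1), the responses of Asl, Slc7a1 and Odc1 were larger in all 3 KO clones than in all 3 WT clones, and that of Ass1 smaller. The shares of all genes with such an order were 8.27% for larger and 9.82% for smaller, and these 4 differences were not called.

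**Figure D4:**
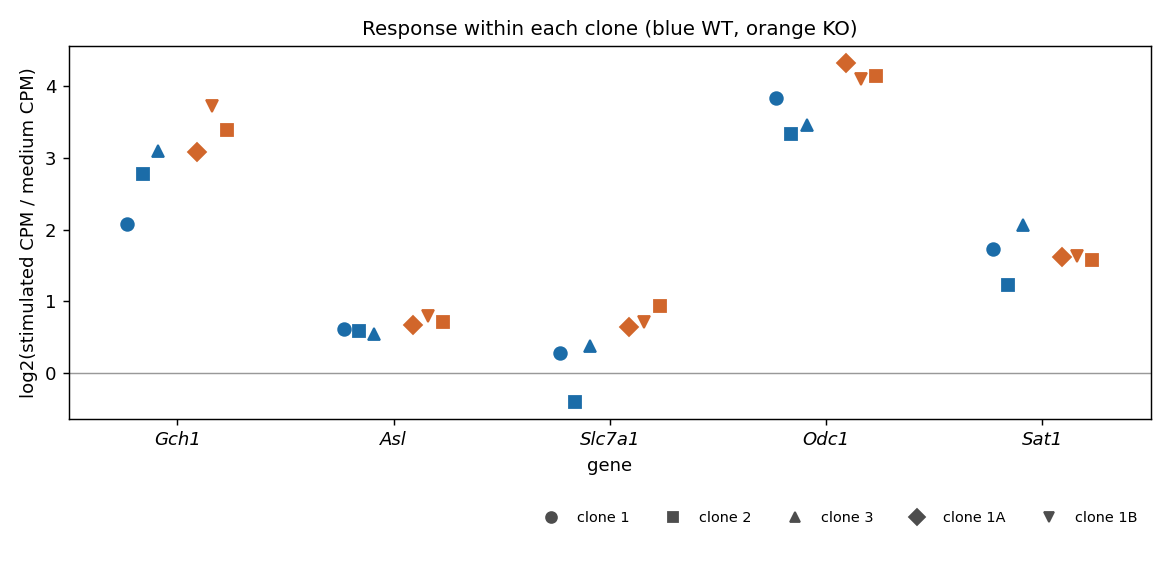
Points give the log2 ratio of stimulated to medium CPM within each clone for the 5 genes with ample counts in medium, WT clones in blue and KO clones in orange, with 1 symbol per clone number. The KO points of Odc1 (4.10 to 4.33) lie above its WT points (3.34 to 3.83), and WT clone 2 has the one value below 0, for Slc7a1 (-0.40).

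WT clone 2 lay at an end of the WT levels in several of these genes. Some clone is lowest and some highest in every gene, and shares over all genes were not counted. Under stimulation WT clone 2 had the lowest WT level of Nos2, Gch1, Slc7a1 and Odc1, and the highest level among all 6 stimulated libraries of Ass1 and Arg2. Its Sat1 level (245 CPM) lay between those of the other WT clones (223 and 327 CPM). The genes therefore did not rank the clones alike.

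Per kilobase of exon, which allows levels to be set beside each other, Odc1 and Sat1 were the most abundant in medium, at 31.3 ± 14.3 and 30.03 ± 6.92 CPM per kb in WT clones, and did not differ beyond their spread. Slc7a1 (13.1 ± 1.43), Asl (5.59 ± 0.574) and Gch1 (2.36 ± 0.877) followed, and Nos2 (0.115 ± 0.0386), Arg1 (0.10 ± 0.0976), Ass1 (0.0690 ± 0.0653) and Arg2 (0.0352 ± 0.0305) came last. The order among these 4 is not resolved, as the Arg2 values, for one, rest on 1, 1 and 0 counts. In KO medium Arg2 (0.129 ± 0.137) stood above Nos2 (0.0940 ± 0.0253), with spreads that overlap. Under stimulation the WT order was Odc1 (389 ± 241), Nos2 (190 ± 78.7), Sat1 (95.5 ± 19.8), Ass1 (23.7 ± 20.8), Gch1 (14.3 ± 2.16), Slc7a1 (14.1 ± 3.58), Asl (8.36 ± 0.902), Arg2 (1.502 ± 1.66) and Arg1 (0.399 ± 0.359). The spreads of Odc1 and Nos2 overlapped there, but within each WT clone Odc1 was the higher, at 647, 169 and 351 against 254, 102 and 214 CPM per kb in clones 1, 2 and 3. Ass1, Gch1 and Slc7a1 overlapped and did not keep 1 order over the clones. In stimulated KO clones Odc1 (499 ± 40.5), Nos2 (218 ± 53.6) and Sat1 (84.3 ± 5.78) kept these places, and Ass1 (3.00 ± 1.03) stood below Slc7a1 (19.4 ± 2.74), Gch1 (10.8 ± 3.04) and Asl (9.45 ± 0.661). Arg1 remained the lowest of the 9 in both stimulated groups, and Nos2 lay above both arginases there.

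Of 80 other genes of these routes, in 7 lists, 53 were tested. In WT clones 11 rose and 6 fell, and in KO clones 12 rose and 16 fell. The median log2 change was -0.14 in WT and -0.19 in KO clones. Of all genes tested, 23.8% were called higher and 23.6% lower in WT clones, and 26.7% and 27.6% in KO clones. The 11 and 12 that rose and the 6 that fell in WT clones were thus no larger a share than among all genes, and the 16 that fell in KO clones a slightly larger one. The counts of the single lists, with 5 to 12 genes each, stand against the same shares. Under library totals, 7 of the 53 were higher and 28 lower in WT clones, and 6 higher and 31 lower in KO clones. That scaling called 6826 of all genes in WT clones, 1586 of them higher, and 7313 in KO clones, 1793 of them higher. In the test against a fold of 1.5, Slc25a15, Pts and Mat2a lost their calls in both genotypes. Slc3a2, Spr and Gatm did so in WT clones, and Dhps and Aldh18a1 in KO clones.

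Among transporters, 2 of 5 rose and 2 fell in each genotype. Slc3a2, the heavy chain shared by several amino acid transporters, went from 159 to 303 CPM in WT clones (0.93 ± 0.19 on the log2 scale, adjusted p = 0.0026) and rose by 1.04 ± 0.20 in KO clones (adjusted p = 0.0010). Slc7a7, a light chain that pairs with Slc3a2 to export arginine in exchange for neutral amino acids, rose by 1.93 ± 0.58 in WT clones (adjusted p = 0.0194) and by 2.78 ± 0.61 in KO clones (adjusted p = 0.0029). Slc25a15, the mitochondrial ornithine carrier, fell by 0.72 in WT clones (adjusted p = 0.0055) and by 0.83 in KO clones (adjusted p = 0.0019).

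Of 6 tetrahydrobiopterin genes other than Gch1, 0 rose and 2 fell in WT clones, and 0 rose and 4 fell in KO clones. Spr, sepiapterin reductase, the last step, fell by 0.60 in WT (adjusted p = 0.0023) and by 0.82 in KO clones (adjusted p = 0.00027). Pts, the step between Gch1 and Spr, fell by 0.36 in WT (adjusted p = 0.0175) and by 0.71 in KO clones (adjusted p = 0.00029), and the WT call of Pts was lost without WT clone 3 (adjusted p = 0.131).

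Of 9 synthases, partners and targets, 3 rose and 1 fell in WT clones and 3 rose and 3 fell in KO clones. Ddah2, of the dimethylarginine hydrolase family, went from 0.633 to 2.06 CPM in WT clones (1.67 ± 0.38, adjusted p = 0.0040).

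Of 12 genes of polyamine synthesis and its regulation, 2 rose and 0 fell in WT clones and 3 rose and 2 fell in KO clones. Smox, spermine oxidase, was the one with a large rise, from 34.2 to 136 CPM in WT clones (1.99 ± 0.34, adjusted p = 0.00080) and from 36.3 to 163 CPM in KO clones (2.17 ± 0.34, adjusted p = 0.00038). Sat2, a relative of Sat1 by sequence, fell by 1.34 in KO clones (adjusted p = 0.0037), from 3.35 to 1.32 CPM. Mat2a, which makes S-adenosylmethionine, rose by 0.31 in WT clones (adjusted p = 0.0117) and by 0.52 in KO clones (adjusted p = 0.00042), and neither call held under library totals (-0.05 and 0.14, adjusted p = 0.654 and 0.177). Its WT call was also lost without WT clone 2 (adjusted p = 0.0824).

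Of the 5 genes of polyamine transport and hypusine, 2 rose and 1 fell in each genotype. Dhps, which uses spermidine to modify the translation factor encoded by Eif5a, rose by 0.94 ± 0.16 in WT (adjusted p = 0.00080) and by 0.70 ± 0.16 in KO clones (adjusted p = 0.0040), the latter not under library totals (0.32, adjusted p = 0.129). Of 7 arginine methyltransferases 1 rose in each genotype, Prmt2, by 1.504 ± 0.24 in WT clones (adjusted p = 0.00044) and 1.93 ± 0.24 in KO clones (adjusted p = 7.2e-05). None of the 7 fell in WT clones and 3 fell in KO clones. Of 9 genes of the urea cycle, proline and creatine, 1 rose in each genotype, and 0 fell in WT clones. In WT clones it was Gatm, which makes the creatine precursor from arginine (0.50 ± 0.15, adjusted p = 0.0170), a call lost without WT clone 2 or 3 (adjusted p up to 0.145) and under library totals (0.14, adjusted p = 0.437). In KO clones it was Aldh18a1, of proline and ornithine synthesis (0.31 ± 0.09, adjusted p = 0.0114), lost without any 1 KO clone (adjusted p up to 0.0760), with KO 1A and 1B summed (0.0545) and under library totals (-0.07, adjusted p = 0.539). In KO clones 1 fell, Gamt of creatine synthesis, which fell by 1.499 (adjusted p = 0.0041).

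**Figure D5:**
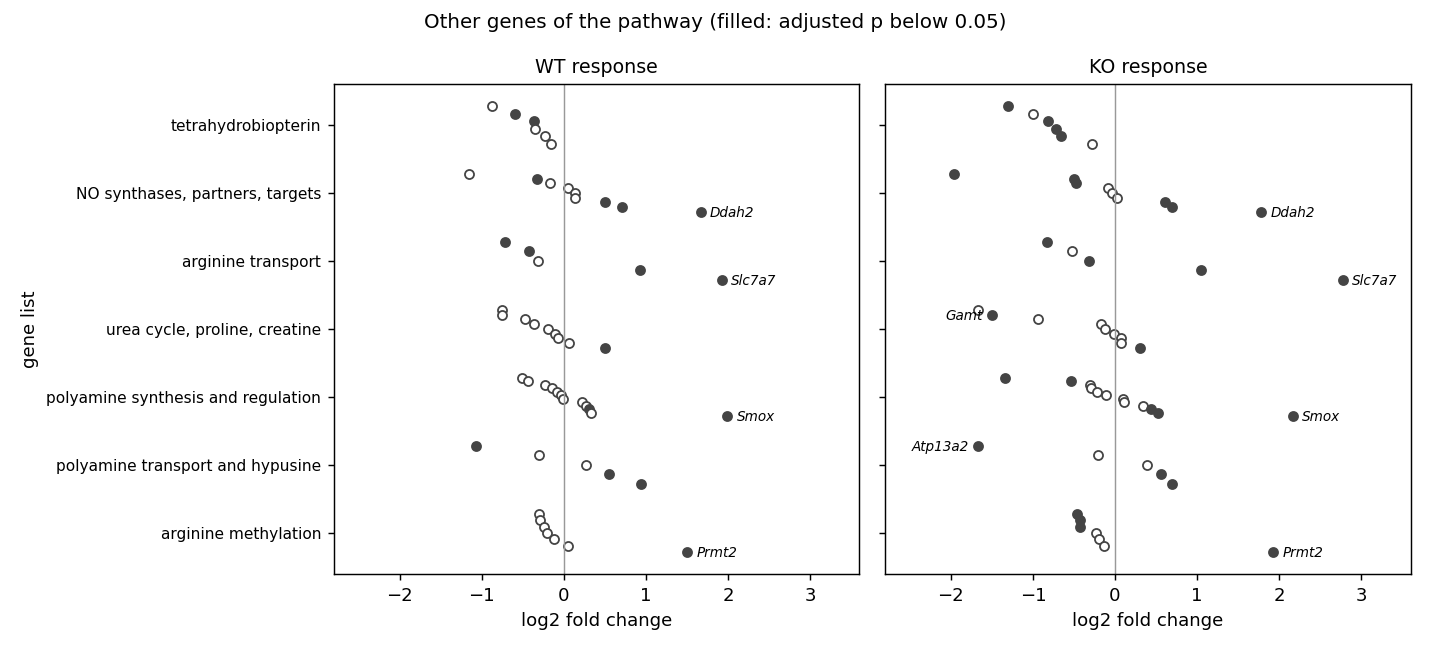
Each point is 1 of 53 other genes of these routes, placed by its fitted log2 fold change under LPS/IFN-gamma in WT (left) and KO clones (right) and grouped by list; filled points have an adjusted p below 0.05. Smox, Slc7a7, Prmt2 and Ddah2 lie farthest to the right, and the tetrahydrobiopterin genes lie to the left of 0.

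Between the genotypes, 1 of the 53 genes was higher and 1 lower in KO clones in medium, and 0 were higher and 4 lower under stimulation. Of all genes 0.352% were called higher and 0.858% lower in medium, and 1.13% and 3.51% under stimulation. Atp13a2, a lysosomal pump that exports polyamines to the cytosol, was the gene called in both. It was at 212, 290 and 226 CPM in WT clones 1, 2 and 3 and at 126, 126 and 118 CPM in KO clones 1A, 1B and 2 in medium, and at 103, 138 and 105 against 36.4, 45.5 and 34.1 CPM under stimulation. No KO clone reached the lowest WT clone in either condition. Of all genes, 20.9% did not overlap between the genotypes in medium and 24% under stimulation. Its KO difference under stimulation was -1.58 ± 0.16 (adjusted p = 0.0010) and remained called without each clone in turn (adjusted p from 0.0011 to 0.0301) and with KO 1A and 1B summed (adjusted p = 0.0183). In medium it was -0.98 ± 0.16 (adjusted p = 0.0139), a call lost without each of the 3 KO clones (adjusted p up to 0.170) and with 1A and 1B summed (adjusted p = 0.130). The test against a fold of 1.5 was passed under stimulation (adjusted p = 0.0057) but not in medium (adjusted p = 0.280).

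The other 3 lower genes under stimulation were Gatm (207 against 102 CPM, -1.02 ± 0.15, adjusted p = 0.0056), Nostrin, a partner of the endothelial nitric oxide synthase (28.8 against 14.8 CPM, -0.96 ± 0.17, adjusted p = 0.0120), and Spr (24.6 against 16.3 CPM, -0.59 ± 0.12, adjusted p = 0.0259). The Gatm call was lost without KO 1A or 1B (adjusted p up to 0.0843), that of Nostrin without any 1 KO clone (up to 0.113), and that of Spr without any 1 KO clone or WT clone 1 (up to 0.176). The gene higher in medium was Prmt6, at 65.4 CPM in WT and 102 CPM in KO clones (0.65 ± 0.11, adjusted p = 0.0225), a call lost without KO 1A, KO 1B, WT 1 or WT 2 (adjusted p up to 0.263). With KO 1A and 1B summed into 1, none of these 4 calls held (adjusted p = 0.0740 for Gatm, 0.102 for Nostrin, 0.159 for Spr and 0.216 for Prmt6). All 4 were also lost in the test against a fold of 1.5 (adjusted p = 0.127 for Gatm, 0.255 for Nostrin, and higher for Spr and Prmt6).

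The genes most alike in pattern were sought by Pearson's r of log2(CPM + 1) over the 12 libraries, which share the contrast of stimulated and medium libraries, so that r is high for many genes and is given as a description. For Nos2 they were Tox4 (r = 0.998), Upp1 and Sp140 (both 0.997). Over the 6 stimulated libraries alone they were Siglec1, Dcaf5 and Nprl3 (0.977, 0.977 and 0.976), again a description, as many genes were searched. For Odc1 they were Hax1 (0.996) and the proteasome genes Psma2 and Psmb1 (0.994 and 0.988), for Sat1 Esyt1, Cd47 and Ifi211 (0.993, 0.992 and 0.991), and for Gch1 Plod3, Ankib1 and Anxa7 (0.984, 0.983 and 0.981). Ass1 was most like 2310001H17Rik (0.985), Twf1 (0.983) and Ccr9 (0.982), and Asl most like Tmem87a (0.988), Smox (0.982) and Rab3gap1 (0.979). Slc7a1, with the smallest WT response of the 9, had its highest values with Iars (0.927), which encodes an aminoacyl-tRNA synthetase, Sesn2 (0.898) and Ankhd1 (0.896).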

How the data were processed

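RNA-seq gene counts of 12 RAW264.7 libraries were used as deposited by the authors: whole-number counts per Ensembl gene in 1 table of 12483 genes, the second-highest library of every gene holding 5 counts or more, with 66 values written in exponent form. The build was mm10 (GRCm38) and DESeq2 is named without a version, per the submitters' processing notes; aligner, counter and strand setting were not given in the sources used here. GENCODE M21 named 12305 IDs and left 178 unnamed. Groups came from the labels.

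From the counts, edgeR 4.0.16 in R 4.3.3 was run with TMM factors, filterByExpr (12231 genes kept, 252 left out) and a robust quasi-likelihood fit of 1 mean per group over all 12 libraries (8 residual degrees of freedom, common coefficient of variation 23.6%). P-values were Benjamini-Hochberg adjusted over all genes tested and called below 0.05. SE is the log2 value over the root of its quasi-likelihood F. The 5 comparisons were the WT response, the KO response, KO against WT within each condition, and the interaction of genotype with stimulation. The fit was checked on simulated data.

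Each clone gave 1 library per condition, per the labels, which pairs medium and stimulated libraries. The primary fit had no term for clone and treated both libraries of a clone as independent, also for KO against WT. Their deviations from the group means correlated at 0.64, 0.70 and 0.62 in WT 1, 2 and 3 and 0.32, 0.29 and 0.51 in KO 1A, 1B and 2. With the stimulated library of another clone of its genotype, the highest values were -0.20, -0.37 and -0.11 in WT clones. They were 0.27, 0.18 and -0.35 in KO 1A, 1B and 2. Whether KO 1A and 1B vary independently was not tested. A block for clone cut the residual degrees of freedom to 4. Other alternatives were RLE factors, library totals, DESeq2 1.42.0, no filter, each clone left out, KO 1A and 1B summed, and a test against a fold of 1.5. Similar copies were sought among annotated transcripts with BLAST 2.17.0 (at least 90% identity over 200 bases). Folds with 3 or fewer counts in a group carry 95% counting intervals.

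The genes, the 7 pathway lists, the marker lists and the tests were chosen with earlier results of these data known. Named were all 9 measured genes, up to 3 called genes of smallest p per pathway list and comparison, and the 3 genes most alike in pattern to a measured gene. The genes most like Arg1 and Arg2 are not named, because few of their values lay above the counting limit. Gm5424 and Vti1b, which may share reads with Ass1 and Arg2, were added after seeing the data. Promoter windows came from RefSeq (GRCm38.p6) and were matched by symbol. Some genes that this rule would name are not reported here.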

Additional observations from a re-analysis of the deposited data

How the results depend on the processing

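Over 45 gene results and 14 alternatives, 583 of 612 values kept their direction and their side of the threshold, 14 changed sign, 12 lost and 3 gained a call. The number of genes called was 6 to 8 in the WT response and 6 to 9 in the KO response. In KO against WT in medium it was 0 except with DESeq2, where it was 1. Under LPS/IFN-gamma it was 1, but 0 with KO 1A and 1B summed and in the test against a fold of 1.5, and 0 to 1 when single clones were left out (0 without WT 2 and without each KO clone). For the difference of the responses it was 0 throughout.

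With clone as a replicate block, which rests on the pairing of each clone's libraries, Arg1 was also called in WT (1.94, adjusted p = 0.0237) and KO clones (2.83, adjusted p = 0.0294), and no other call among the 9 genes changed. Over all genes, the block took the calls from 5796 to 7485 in WT, from 6638 to 8082 in KO clones and from 0 to 40 for the difference of the responses, for which DESeq2 called 28. It could not be fitted for KO against WT, because clones differ between the genotypes.

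Signs changed only where the primary value was not called. Slc7a1 in the WT response was -0.24 under library totals and ran from -0.012 to 0.30 with single clones left out. Leaving out single clones, KO against WT in medium ran from -0.021 to 0.12 for Asl, -0.50 to 0.17 for Odc1 and -0.25 to 0.071 for Sat1. Under LPS/IFN-gamma it ran from -0.092 to 0.46 for Nos2 and -0.29 to 0.00045 for Sat1. The difference of the responses ran from -0.037 to 0.80 for Nos2, -1.59 to 1.83 for Arg1, -1.62 to 0.22 for Arg2 and -0.29 to 0.17 for Sat1. The cause was not tested. Counts called over all genes in KO against WT moved with single clones and tools: in medium from 148 to 14 without KO 1A, 24 without KO 1B, 419 without WT 3, 16 with KO 1A and 1B summed, 45 in the fold test and 618 with DESeq2, and under LPS/IFN-gamma from 567 to 48, 69, 972, 73, 78 and 1187, and to 287 without KO 2. In the fold test 2462 genes were called in WT and 3198 in KO clones.

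Depth limits Ass1 in medium, Arg1 and Arg2, whose counts per library were 6 or fewer in medium. It also limits Nos2 in medium, at 4 to 8 counts per library.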
